A study of Bos taurus with 40 samples.

Results

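The transporters described here are the solute carriers of the SLC17A, SLC22A, SLC47A and SLCO families and the ATP-binding cassette (ABC) pumps of the ABCA, ABCB, ABCC and ABCG families. Members were chosen by symbol, which gave 49 of the 13570 genes listed in the count tables, 30 carriers and 19 pumps. All 49 had at least 1 read in at least 1 library, and so all 49 were among the 13148 genes tested. RNA-seq had been performed on 10 Korean cattle, 5 cows and 5 bulls, with the pituitary gland, liver, longissimus dorsi muscle and abdominal fat taken from each, in order to find genes whose expression differs between the sexes. By the labels there was 1 library per animal and tissue. The groups as labelled are 5 female and 5 male samples in each tissue, each from a separate animal. The labels name no treatment, and all animals were slaughtered at an age of over 22 months.

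Organic ion carriers of the SLC and SLCO families move bile salts, hormones, drugs and their conjugates across cell membranes, driven by gradients. ABC pumps spend ATP to export lipids, conjugates and peptides, or, in the case of the sulfonylurea receptors, to gate a potassium channel. In the liver, carriers on the blood side of the hepatocyte take up solutes, and pumps on the bile side and the blood side release them.

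Levels are given as CPM, the reads of a gene relative to the library size after TMM scaling, and are compared between samples but not between genes. Between 5173092 and 19165864 reads per library were counted on genes, and a level of 3 reads per library, which was 0.132 to 0.793 CPM, was taken as the floor. The labelled tissues carried their defining markers, as ALB had a mean of 117192 CPM in liver, FABP4 5621 CPM in fat, ACTA1 65645 CPM in muscle and PRL 152018 CPM in the pituitary. In 18 of the 20 libraries labelled as bulls, XIST, the RNA of the inactive X chromosome, had at most 13 reads and the Y-linked genes DDX3Y, USP9Y and ZFY together at least 331. The liver library labelled bull 3 went against its label, with 8694 XIST reads and 0 reads of the Y-linked genes. Within the liver it stood nearest to the library of cow 4 (Pearson r 0.988 across genes). The median chi-square per gene of this pair was 2.22, against 4.62 for the next liver pair, cows 1 and 2. The chi-square per degree of freedom of 15.85 was beyond sampling noise, but it cannot tell 2 samples of 1 animal from samples of 2 animals. Whether both came from 1 animal was not tested, and both were kept. The fat library labelled bull 5 had 28 reads of the Y-linked genes and 18 of XIST. The pituitary of bull 5 also stood apart, with 58536 CPM of POMC against 5263 to 30941 CPM in the other 9 animals and 389 CPM of COL1A1 against 48.5 to 153 CPM.

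The mean level was highest in liver for 24 members, in the pituitary for 15, in muscle for 7 and in fat for 3. Over all genes tested it was highest in liver for 23%, in the pituitary for 27.6%, in muscle for 24.7% and in fat for 24.7%. A member was called enriched in a tissue when edgeR's quasi-likelihood test gave an adjusted p below 0.05 and a log2 difference of at least 2 against each of the other 3 tissues. By this rule 14 of the 49 members (28.6%) were enriched in liver, beside 6.05% of all genes tested. In the pituitary 6 members (12.2%) were enriched, beside 7.5% of all genes. Neither muscle, where 4.1% of all genes were enriched, nor fat, with 2.4%, had an enriched member. The smallest of the 3 log2 differences had a median over the members of -0.48 for liver, -1.22 for the pituitary, -2.33 for fat and -3.42 for muscle, against -0.95, -0.78, -0.90 and -0.98 over all genes. With a log2 difference of 1 in place of 2, the counts were 18 in liver, 11 in the pituitary, 2 in muscle and 0 in fat, beside 10.1%, 12%, 8.13% and 6.93% of all genes. The share of all gene reads that fell on the 49 members was 0.235% to 0.388% in liver, 0.0894% to 0.139% in the pituitary, 0.0693% to 0.141% in fat and 0.0355% to 0.0739% in muscle, so the liver libraries did not overlap those of any other tissue.

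**Figure D1:**
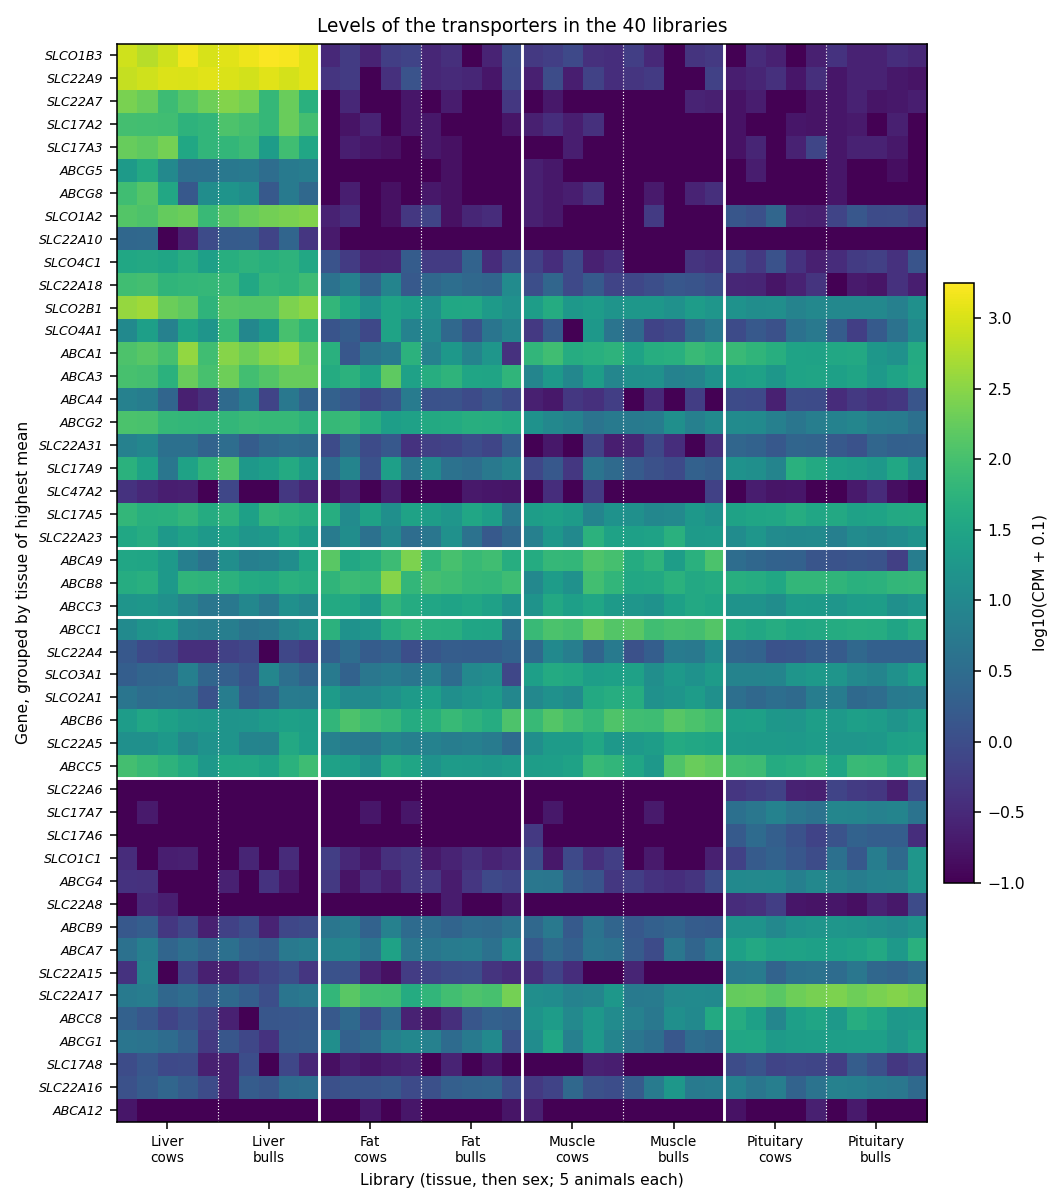
Heat map of the members described here (rows, grouped by the tissue of their highest mean) in the 40 libraries (columns, cows before bulls in each tissue), coloured by log10(CPM + 0.1). The members highest in liver fill the upper block, where the uptake carriers at the top are near the lower end of the scale in the other 3 tissues.

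All 5 members of the list of hepatocyte sinusoidal uptake carriers were enriched in liver. SLCO1B3, which takes up bile acids and bilirubin, ranged from 612 to 1681 CPM in the 10 livers with a median of 1144 CPM, and its mean was 1177 ± 344 CPM (SD, n = 10). SLC22A9, an anion exchanger, ranged from 739 to 1158 CPM (median 1030.0), and SLC22A7, an organic anion transporter, from 50.1 to 294 CPM (median 189). The highest value of these 3 carriers in any library of another tissue was 1.102 CPM, that of SLC22A9 in the fat of cow 5, so liver overlapped no other tissue. The smallest log2 differences between liver and another tissue were 11.49 for SLCO1B3, 11.40 for SLC22A9 and 10.86 for SLC22A7, with the largest adjusted p 6.25e-23 by edgeR's quasi-likelihood test. SLCO2B1, a broad anion carrier, behaved differently within the list. It ranged from 57.8 to 444 CPM in liver (median 175), but its means were also 28.3 CPM in fat, 20.9 CPM in muscle and 10.5 CPM in the pituitary. The lowest liver value, of cow 5, lay below the highest fat value of 65.3 CPM, so these tissues overlapped, although the log2 difference to fat was 2.98 (SE 0.26, adjusted p 2.06e-12). In bulk tissue, fewer cells of a type and less RNA per cell cannot be told apart, and this holds for each level given here.

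Enrichment in liver was also found for 7 carriers outside that list. SLC17A2 and SLC17A3, which lie next to each other in the RefSeq gene order of ARS-UCD2.0 and belong to the family of sodium-coupled phosphate and urate carriers, had means of 96.6 ± 38.0 and 95.6 ± 69.9 CPM (SD, n = 10) in liver. Their highest values outside the liver were 0.296 CPM for SLC17A2 and 0.684 CPM for SLC17A3. SLCO1A2, a carrier of bile salts and thyroid hormones, ranged from 74.9 to 279.8 CPM in liver and from 0.137 to 2.46 CPM in the pituitary, and the pituitary exceeded fat (adjusted p 3.47e-05, quasi-likelihood test). SLCO4C1, a carrier of digoxin and thyroid hormones known mainly from the kidney, had 25.0 to 54.8 CPM in liver and at most 2.20 CPM elsewhere. SLC22A18, an orphan carrier, had 34.7 to 96.3 CPM in liver and 1.42 to 11.1 CPM in fat. SLC22A10, another orphan, was low, with 0 to 2.65 CPM in liver and 2 reads in fat, 0 in muscle and 0 in the pituitary. SLCO4A1, a thyroid hormone carrier, had the smallest difference of the 14 enriched members, with a log2 difference of 2.33 (SE 0.63, adjusted p 0.00269) between liver and fat. It ranged from 7.30 to 103 CPM in liver and reached 28.7 CPM in the fat of cow 4, and without bull 4 it was no longer enriched. Without the liver of bull 3 and the fat of bull 5 all 14 were still called and ABCA1 was added.

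Outside the liver, the traces of these carriers were set beside those of the hepatocyte markers ALB and FGB, the genes of albumin and the fibrinogen beta chain. ALB in fat, muscle and the pituitary stood at 0.0307%, 0.0329% and 0.0144% of its liver mean. SLCO1B3 stood at 0.0293%, 0.0317% and 0.0136% in the same order, and SLC22A9 at 0.0364%, 0.0329% and 0.0148%. The percentages of FGB were 0.0244%, 0.0321% and 0.0131%. Some other liver-enriched members had much higher percentages than ALB. SLCO2B1 had 12.7% of its liver mean in fat, SLC22A18 6.45% and SLCO4C1 1.90%, and SLCO1A2 had 0.525% in the pituitary. SLCO4A1 had 19.0% in fat, and 11.9% without the fat of cow 4, a calculation added after its value was seen. Other hepatocyte markers had higher percentages in some tissues, as TTR, the gene of transthyretin, stood at 0.231%, 0.0453% and 0.210%. The part of hepatocyte RNA in these traces was not tested. The summed level of the 5 measured hepatocyte markers of 6 listed ranged from 13.8 to 473 CPM in fat, muscle and the pituitary and from 113338 to 283524 CPM in liver. SERPINA1, among these markers, stood at 0.0335% of its liver mean in fat, 0.0338% in muscle and 0.573% in the pituitary. APOA1, also among them, was far less confined to liver than ALB. It had means of 167 CPM in liver, 71.9 CPM in fat, 4.71 CPM in muscle and 7.64 CPM in the pituitary.

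**Figure D2:**
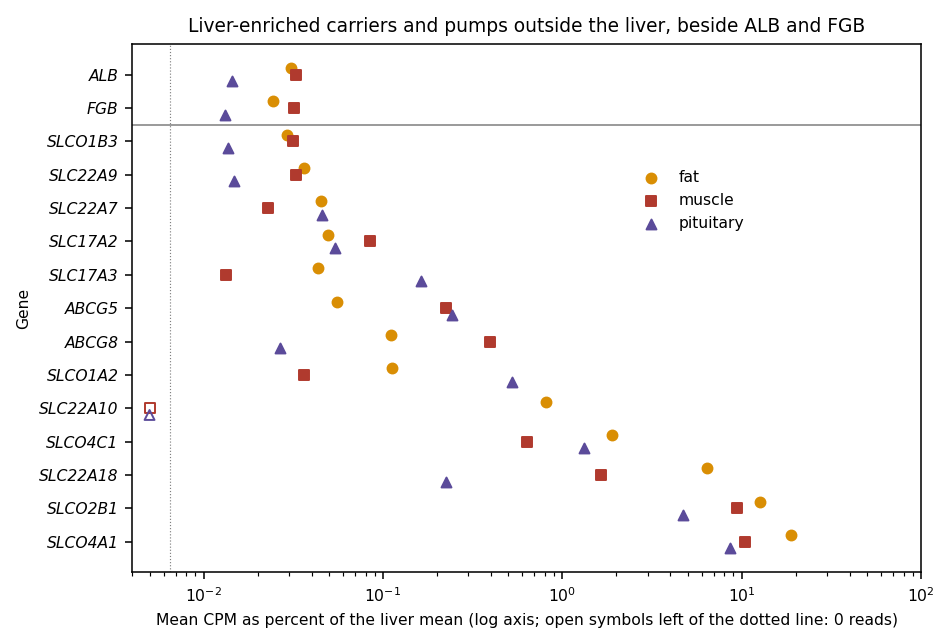
Mean CPM in fat (circles), muscle (squares) and the pituitary (triangles) as percent of the liver mean on a log axis, for ALB and FGB (above the line) and the members enriched in liver that are described here. SLCO1B3 and SLC22A9 lie at the positions of ALB, between 0.0136% and 0.0364%, whereas SLCO2B1 and SLCO4A1 lie between 4.72% and 19.0%, the latter being the fat of SLCO4A1, which is 11.9% without cow 4.

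The genes that act with the liver carriers were in part enriched in liver too. Of the 8 measured members of the list of nuclear receptors and hepatocyte factors, 5 were enriched in liver, among them HNF4A, NR1H4 (the bile acid receptor), and NR1I2 and NR1I3 (the xenobiotic receptors). The sterol receptors NR1H2 and NR1H3 and the fatty acid receptor PPARA were not. HNF4A had 949.7 CPM in liver and 27.02 CPM in fat. Of the 3 other bile salt carriers, SLC10A1, the sodium-coupled uptake carrier (382 to 1362 CPM in liver, median 861), and SLC51B, a subunit of the basolateral exporter (4.61 to 23.6 CPM), were enriched in liver. SLC51A, the partner subunit of SLC51B, was not, with 0.143 to 2.42 CPM in liver. None of the 10 listed genes of the ABCD, ABCE, ABCF and TAP groups was enriched in any tissue.

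A mean above the floor in all 4 tissues was found for 25 members (51%), 14 of 19 pumps and 11 of 30 carriers, beside 74.1% of all genes, and the difference between pumps and carriers was not tested. In liver 2 pumps were enriched, which are partners. ABCG5 and ABCG8, neighbours in the RefSeq order, form the heterodimer that secretes sterols into bile. ABCG8 ranged from 1.40 to 129 CPM in liver with a median of 12.03 CPM, and ABCG5 from 3.22 to 37.2 CPM with a median of 5.43 CPM. In fat, muscle and the pituitary ABCG5 had 1, 2 and 4 reads and ABCG8 5, 9 and 1 reads, each over 10 libraries. The spread within the liver was large, as the SD exceeded the mean for both (9.96 ± 10.8 and 30.2 ± 43.4 CPM, n = 10).

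The other members of the cholesterol efflux list had different tissues of highest level. ABCA1, which loads cholesterol onto apolipoprotein A-I, had 212 ± 108 CPM in liver and 55.5 ± 17.1 CPM in muscle. Its 10 livers, from 88.9 to 364 CPM, did not overlap the other tissues, whose highest value was 88.6 CPM. The log2 difference of 1.99 (SE 0.45) to muscle (adjusted p 0.000305, quasi-likelihood test) fell just under the limit of 2 for enrichment, and it passed that limit with the animal as a block. ABCG1, which passes cholesterol to high density lipoprotein, was highest in the pituitary at 25.0 ± 5.28 CPM, with 9.45 ± 9.89 CPM in muscle, 6.05 ± 3.89 CPM in fat and 1.91 ± 1.45 CPM in liver (SD, n = 10). Muscle and fat did not differ by the test (adjusted p 0.434), whereas muscle was below the pituitary (log2 difference -1.70, SE 0.38, adjusted p 0.000261, quasi-likelihood test). ABCG4, the close relative of ABCG1 known from brain, was enriched in the pituitary with 6.25 to 16.05 CPM against at most 4.83 CPM in any other library, and 5 of the 10 livers had 0 reads.

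The export list had 2 measured members, ABCG2 and ABCC3, as the other 6 genes of the list were not analysed here. ABCG2, the pump of urate, riboflavin and drugs, had 55.4 to 109.6 CPM in liver and 24.1 to 71.6 CPM in fat, and liver exceeded fat by 0.75 on the log2 scale (SE 0.21, adjusted p 0.00224). Muscle (4.29 to 14.3 CPM) and the pituitary (3.59 to 11.04 CPM) were lower and did not differ by the test (adjusted p 0.405). ABCC3, a pump of glucuronide conjugates on the blood side of hepatocytes, had its lowest mean in liver. It was 10.2 ± 4.84 CPM there, 17.8 ± 3.89 CPM in the pituitary, 25.5 ± 8.47 CPM in muscle and 33.4 ± 12.8 CPM in fat (SD, n = 10), and liver was below the pituitary (log2 difference -0.82, SE 0.24, adjusted p 0.00277).

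Among the other pumps, ABCC1, which exports glutathione conjugates and leukotrienes, was highest in muscle, with 74.8 to 191 CPM against at most 60.7 CPM in any library of another tissue. It exceeded the pituitary by a log2 difference of 1.58 (SE 0.28, adjusted p 5.26e-06). ABCC5, a pump linked to cyclic nucleotides, showed no difference by the test between muscle (18.5 to 191 CPM) and the pituitary (31.0 to 89.1 CPM, adjusted p 0.591). ABCB9, a lysosomal peptide carrier, was highest in the pituitary with 9.71 to 17.1 CPM, and no other library exceeded 7.31 CPM. ABCA7, a lipid pump of phagocytes and brain, was also highest there with a mean of 30.2 CPM, followed by fat with 8.403 CPM.

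ABCA3, known for loading surfactant lipids in the lung, was highest in liver (51.7 to 201 CPM), and ABCA4, known from the retina, had 3.32 CPM there. ABCA9, a pump of the ABCA5 subgroup, was highest in fat at 92.8 ± 65.1 CPM, but muscle at 67.9 ± 32.8 CPM did not differ from it by the test (adjusted p 0.313). The pituitary was lower, with 2.12 ± 1.61 CPM. The fat of cow 4 held the highest fat values of ABCB8 (306 CPM against 60.8 to 95.2 CPM in the other 9), ABCA3 (159 against 27.3 to 59.7 CPM) and SLCO4A1 (28.7 against 0.737 to 9.86 CPM).

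The 3 measured pumps of the mitochondrial list had reads in every library, and none was enriched in a tissue. ABCB6, a porphyrin transporter, was highest in muscle with 99.5 CPM and second in fat with 70.5 CPM (adjusted p 0.0138). ABCB8, of the inner membrane, was highest in fat with 98.1 CPM, and its muscle values ran from 9.66 to 91.3 CPM. At the other end of the scale, ABCA12, the keratinocyte lipid pump, had 10 reads in the 40 libraries and SLC47A2, a cation exchanger of the kidney, 48 reads, and both had means under the floor in all 4 tissues.

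ABCC8, the sulfonylurea receptor, is the regulatory subunit of ATP-sensitive potassium (KATP) channels, whose pore is formed by KCNJ11 or KCNJ8. In the pituitary ABCC8 ranged from 8.77 to 43.9 CPM (median 25.7) and in muscle from 4.93 to 38.4 CPM (median 12.001). These tissues overlapped, and the log2 difference of muscle to the pituitary was -0.85 (SE 0.39, adjusted p 0.0551, quasi-likelihood test), so no difference was called. Fat and liver had means of 1.35 and 0.969 CPM. KCNJ11, the neighbour of ABCC8 in the RefSeq order, had a different profile. It ranged from 85.8 to 229.8 CPM in muscle and from 1.88 to 4.58 CPM in the pituitary, a log2 difference of 5.39 (SE 0.30, adjusted p 2.39e-17), and was enriched in muscle. KCNJ8 was highest in fat (9.98 to 39.0 CPM) and had 4.78 to 15.9985 CPM in the pituitary. ABCC9, the other sulfonylurea receptor, was not analysed here.

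**Figure D3:**
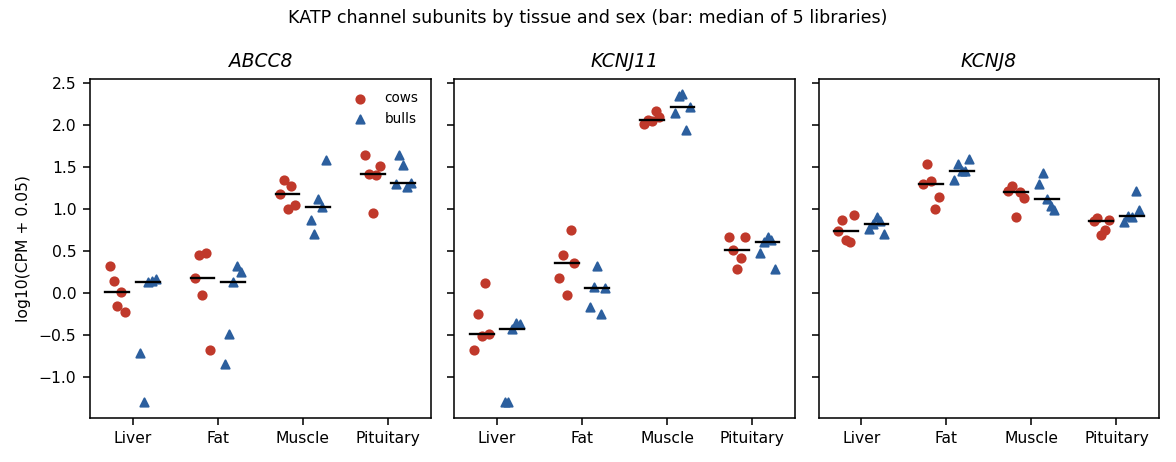
Levels of ABCC8 and of the pore subunits KCNJ11 and KCNJ8 as log10(CPM + 0.05) in each library, by tissue, for cows (red circles) and bulls (blue triangles), with bars at the median of 5. ABCC8 is highest in the pituitary and muscle, whereas KCNJ11 is highest in muscle alone, where no library falls under 85.8 CPM.

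The pituitary-enriched carriers included vesicular glutamate transporters, which load glutamate into synaptic vesicles. SLC17A7 had 3.66 to 8.73 CPM in the 10 pituitaries, and 1 read in liver, 2 in fat and 2 in muscle. SLC17A6 had 0.261 to 3.004 CPM, and outside the pituitary 3 reads, all in the muscle of cow 1. The third transporter of this kind, SLC17A8, was low in both the pituitary (0.822 CPM) and the liver (0.589 CPM), which did not differ by the test (adjusted p 0.254). SLC17A9, which loads nucleotides, and SLC17A5, which exports sialic acid from lysosomes, had means of 39.2 and 51.0 CPM in liver and of 23.8 and 33.3 CPM in the pituitary. Liver and the pituitary differed by the test for SLC17A5 (adjusted p 0.0226) and not for SLC17A9 (adjusted p 0.128).

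SLCO1C1, a thyroxine carrier of the brain barrier and astrocytes, ranged in the pituitary from 0.568 to 16.9 CPM with a median of 1.85 CPM and had at most 0.966 CPM elsewhere. SLC22A6 and SLC22A8, neighbouring genes of anion carriers of kidney and choroid plexus, were enriched in the pituitary at levels near the floor. SLC22A6 had 0.132 to 0.783 CPM, 63 reads in the 10 pituitaries and 0 in each other tissue, and SLC22A8 had 37 reads in the pituitary, 3 in liver, 3 in fat and 0 in muscle. When genes with low counts were filtered out, neither of them was tested. Bull 5 had the highest pituitary values of SLCO1C1, ABCG4, SLC22A6 and SLC22A8 and the lowest of SLC17A6, and without bull 5 SLC22A8 was no longer enriched. Its GFAP, a glial marker, was 47.5 CPM, within the 3.26 to 55.2 CPM of the other animals. SLC22A17, a receptor of the iron-carrying protein lipocalin, was highest in the pituitary at 146 to 293 CPM, with fat second at 41.2 to 229.6 CPM (adjusted p 0.000272), and SLC22A15, an orphan, had 3.61 CPM in the pituitary.

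The carnitine list, which holds SLC22A4, SLC22A5 and SLC22A16, had no enriched member. SLC22A5, the plasma membrane carnitine transporter, had means of 25.9 CPM in muscle, 21.1 CPM in the pituitary, 16.4 CPM in liver and 6.26 CPM in fat, and muscle and the pituitary did not differ by the test (adjusted p 0.276). SLC22A4, its neighbour, an ergothioneine carrier, was highest in muscle at 5.20 ± 3.42 CPM, a log2 difference of 1.495 (SE 0.33, adjusted p 0.000162) to the pituitary. SLC22A16 had 5.14 ± 1.84 CPM in the pituitary and 4.21 ± 5.18 CPM in muscle (adjusted p 0.186).

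SLCO2A1, the prostaglandin carrier, was highest in muscle (9.66 to 44.8 CPM) and did not differ there from fat (9.35 to 24.9 CPM, adjusted p 0.131). SLCO3A1, a broadly expressed anion carrier, had 12.3 to 40.1 CPM in muscle and 7.95 to 23.9 CPM in the pituitary (adjusted p 0.0187). SLC22A23, an orphan, had 26.6 CPM in liver and 26.3 CPM in muscle, and SLC22A31, another orphan, 3.92 CPM in liver. Over all 49 members, the 2 tissues of highest mean differed by the test for 36 (73.5%), beside 53.5% of all genes, and did not for 13. The highest tissue did not overlap any other for 17 (34.7%), beside 19.3% of all genes. Of these, 12 were highest in liver, beside 5.78% of all genes, 4 in the pituitary (7.23%), 1 in muscle (4.65%) and 0 in fat (1.6%).

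The comparison of the sexes was made in each tissue with the likelihood ratio test of edgeR on sex alone (M1), and log2 differences are male minus female. In liver no member was called, beside 0.175% of all genes. By the likelihood ratio test 8 members (16.3%) had an unadjusted p below 0.05, beside 7.45% of all genes, 5 lower and 3 higher in bulls. By the quasi-likelihood test 8 had one and 0 were called, and DESeq2 called 0 with 9 at that p. Of all 13148 genes, the quasi-likelihood test called 1, with 873 at that p. The median log2 difference of the members was -0.20, while that of all genes tested was 0 within rounding.

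The smallest liver p was that of ABCG8. In cows 1 to 5 it was at 86.7, 129, 35.1, 1.40 and 11.9 CPM, and in the libraries labelled bulls 1 to 5 at 15.6, 12.2, 1.45, 5.38 and 2.64 CPM. Cows 1 to 3 were above all 5 bulls, whereas cow 4 was below them, at 1.40 CPM close to the 1.45 CPM of the library labelled bull 3. The log2 difference was -2.75 (SE 0.78, adjusted p 0.156). ABCG5, its partner, was at 20.3, 37.2, 9.73, 3.51 and 3.55 CPM in cows and at 5.01, 5.55, 3.22, 5.31 and 6.32 CPM in bulls, so that again the first 3 cows alone stood above the bulls (log2 difference -1.49, SE 0.53, adjusted p 0.330). The animal numbers in the sample titles of cows 1 to 3 share leading digits that no other animal has. What these digits stand for is not given, and their part in these levels was not tested. Without cow 4, edgeR's likelihood ratio test called 3 members in liver, ABCG8 (adjusted p 0.00211), ABCG5 and ABCA1. That fit kept the library labelled bull 3 among the bulls, although its XIST and Y-linked reads went against this label. A fit without both of these libraries was not made, so the calls cannot be read as an effect of sex. Over the fits that each left out 1 liver library, 10 to 187 of all genes were called, against 23 in the main fit. Without the library labelled bull 3, no member was called, 5 had an unadjusted p below 0.05, and ABCG8 had a log2 difference of -2.51 (SE 0.78, adjusted p 0.240).

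In SLC17A3 cows 1 to 3 again stood above all bulls. It was at 183, 158, 226, 33.7 and 63.0 CPM in cows and at 65.1, 83.4, 21.9, 90.0 and 32.4 CPM in bulls (log2 difference -1.14, SE 0.48, adjusted p 0.499). SLCO4A1 was in the opposite direction, with 10.2, 24.7, 7.30, 27.9 and 16.5 CPM in cows and 73.4, 9.13, 18.4, 103 and 57.5 CPM in bulls. Bulls 1, 4 and 5 stood above all cows (log2 difference 1.59, SE 0.52, adjusted p 0.252), and the gene was called without bull 2 (adjusted p 0.0494). ABCA1 was highest in cow 4 among the cows, at 358 CPM, the others having 88.9 to 138 CPM, and bulls had 159.6 to 364 CPM.

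**Figure D4:**
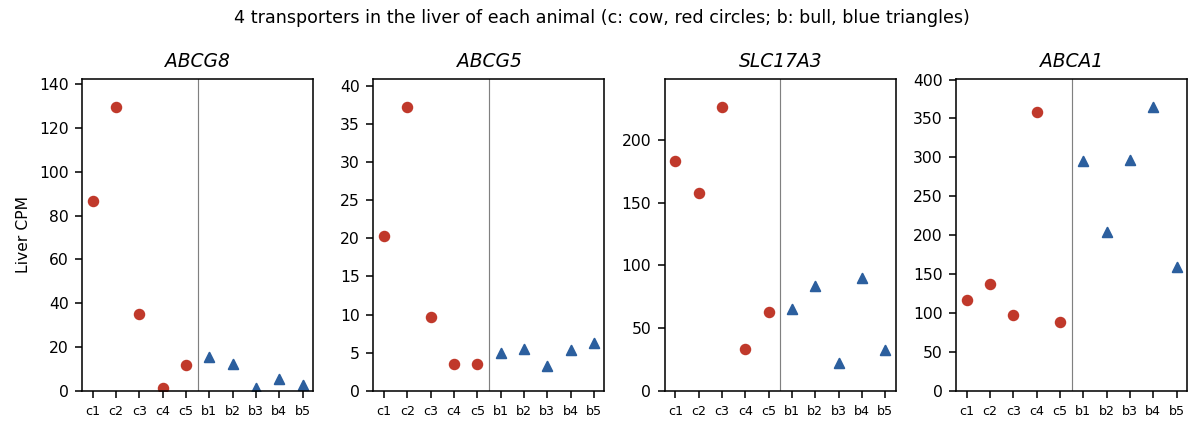
Liver CPM of ABCG8, ABCG5, SLC17A3 and ABCA1 in each animal, cows 1 to 5 (red circles) left and bulls 1 to 5 (blue triangles) right of the line. Cows 1 to 3 stand above all bulls in the first 3 panels, while cow 4 is the lowest cow for ABCG8, ABCG5 and SLC17A3 and the highest for ABCA1, at 358 CPM.

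In fat no member was called, beside 0.114% of all genes, and 1 member, SLC22A8, with 3 reads in fat in all, had an unadjusted p below 0.05 by the likelihood ratio test, beside 6.88% of all genes. The quasi-likelihood test called 0 with 0 members at that p, and DESeq2 likewise gave 0 and 0. Of all 13148 genes, the quasi-likelihood test called 3, with 771 at that p. Among the 3 smallest p values, SLC22A8 and SLC17A7 were under the floor in both sexes. ABCA4 was at 1.96, 1.36, 0.737, 1.102 and 5.75 CPM in cows and at 1.09, 1.11, 0.824, 1.26 and 0.850 CPM in bulls, which overlapped (log2 difference -1.07, SE 0.59, adjusted p 0.745). Without the fat of bull 5, 0 members were called and 0 had an unadjusted p below 0.05.

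In muscle 2 members (4.08%) were called, beside 0.517% of all genes. ABCG1 fell in bulls. It was at 11.4, 32.9, 7.11, 19.8 and 8.28 CPM in cows and at 4.52, 3.36, 1.32, 3.15 and 2.63 CPM in bulls. The sexes did not overlap, and among the 49 members and 4 tissues this held for ABCG1 in muscle alone, beside 1.65% of all genes in muscle, 0.548% in liver, 1.29% in fat and 1.34% in the pituitary. The log2 difference was -2.39 (SE 0.46, adjusted p 0.000479), and it passed with each library left out in turn (adjusted p at most 0.00778), and by DESeq2 (adjusted p 0.000174), but not by the quasi-likelihood test (adjusted p 0.0914). The summed level of the 4 measured macrophage markers of 5 listed was 208 to 353 CPM in the muscle of cows and 56.1 to 236 CPM in that of bulls, and its part in the difference of ABCG1 was not tested. ABCG4 had the third smallest p, with 4.83, 4.58, 1.65, 1.18 and 0.394 CPM in cows and 0.521, 0.315, 0.264, 0.331 and 0.829 CPM in bulls (log2 difference -2.44, SE 0.73, adjusted p 0.0747). It was called without cow 4 and without cow 5. Over the fits that each left out 1 muscle library, 25 to 553 of all genes were called.

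SLC22A16 rose in the muscle of bulls. Cows had 0.414, 0.605, 2.67, 1.03 and 0.920 CPM and bulls 1.56, 5.77, 17.5, 5.63 and 6.08 CPM. Bull 1 lay within the range of the cows, and the other 4 bulls above it. The log2 difference was 2.69 (SE 0.62, adjusted p 0.0138), with an adjusted p of 0.244 by the quasi-likelihood test. The call was lost without cow 1, without cow 2 and without bull 3, with an adjusted p of up to 0.106. In all, 8 members (16.3%) had an unadjusted p below 0.05 in muscle, beside 11% of all genes, 6 lower and 2 higher in bulls, and the median log2 difference of the members was -0.25, against -0.04 for all genes.

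In the pituitary 1 member (2.04%) was called, beside 0.745% of all genes. SLCO1C1 rose in bulls, with 0.568, 1.59, 2.10, 1.33 and 0.889 CPM in cows and 3.64, 1.36, 6.34, 2.69 and 16.9 CPM in bulls. Bull 2 lay within the range of the cows. The log2 difference was 2.25 (SE 0.58, adjusted p 0.0334), and 0.248 was its adjusted p by the quasi-likelihood test. Without bull 5, whose pituitary stood apart, the log2 difference was 1.44 (SE 0.49, adjusted p 0.154). The call was also lost without bull 3 and without cow 1, cow 2, cow 4 or cow 5. ABCA1 (log2 difference -0.74, SE 0.33, adjusted p 0.457) and SLC22A17 (0.37, SE 0.19, adjusted p 0.527) had the next smallest p values, and the sexes overlapped for both. The median log2 difference of the members was 0.0035, against 0 for all genes.

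Over the 4 tissues together, with sex and tissue in the model (M2), 1 member was called, beside 1.69% of all genes. ABCG1 was lower in bulls by the likelihood ratio test, with a log2 difference of -1.01 (SE 0.28, adjusted p 0.0359). In the pituitary cows had 20.2 to 33.3 CPM and bulls 16.1 to 27.2 CPM, and in fat cows had 2.01 to 12.7 CPM and bulls 1.005 to 10.2 CPM, so the sexes overlapped in both. In liver ABCG1 was at 4.44, 3.98, 3.07, 1.83 and 0.410 CPM in cows and at 1.29, 0.716, 0.322, 1.48 and 1.60 CPM in bulls (log2 difference -1.27, SE 0.55, adjusted p 0.523). The call was not made by the quasi-likelihood test (adjusted p 0.0817) or by voom with the animal as a block (adjusted p 0.484). Voom changed the test as well as adding the block, and these were not separated. By the likelihood ratio test the call was lost without the liver of bull 3 and the fat of bull 5 (adjusted p 0.0658). It was also lost without cow 1, without cow 2 and without each of bulls 1 to 4 (adjusted p up to 0.186). Of the partners, 1 of the 10 listed genes of other ABC families was called over the tissues by the likelihood ratio test, ABCD4 (log2 difference -0.48, adjusted p 0.0313). None of the 8 regulators, 2 pore subunits or 3 bile salt carriers was called in any of the main fits by sex. The partners were not put through the alternatives in the fits by sex, so how far the ABCD4 call depends on them is not known.

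The interaction of sex and tissue was called for 1 member, SLCO1C1, beside 0.335% of all genes (adjusted p 0.0213, likelihood ratio test). While bulls were higher in the pituitary, muscle had 7, 1, 6, 2 and 4 reads in cows and 0, 1, 0, 0 and 1 in bulls, levels near the floor (log2 difference -2.81, SE 1.22, adjusted p 0.160). The interaction was not called by the quasi-likelihood test (adjusted p 0.182), with the animal as a block (adjusted p 0.0590), or without bull 5 (adjusted p 0.0798), bull 1, bull 3 or cow 1 (adjusted p up to 0.216).

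**Figure D5:**
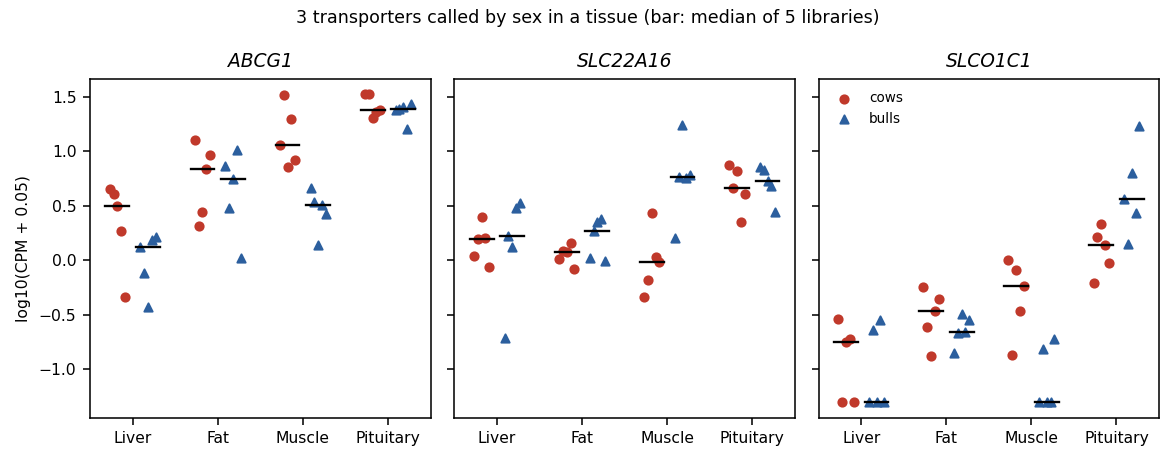
Levels of ABCG1, SLC22A16 and SLCO1C1 as log10(CPM + 0.05) in each library by tissue, for cows (red circles) and bulls (blue triangles), with bars at the median of 5. The sexes separate without overlap for ABCG1 in muscle alone, while 4 of 5 bulls lie above the cows for SLC22A16 in muscle and SLCO1C1 in the pituitary.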

How the data were processed

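RNA of the 40 tissue samples had been sequenced from poly-A selected libraries as paired reads. The authors trimmed adapters with Trimmomatic, aligned with TopHat2 and Bowtie2 to bosTau7, and assigned reads to genes with HTSeq, and they deposited raw counts per gene and sample. The counting mode and strandedness are not given in the sources used here, so reads of overlapping genes cannot be told apart, and near-identical paralogs such as those of SLCO1 and SLC22A may be undercounted. A line without a gene name (0.114% to 2.69% of gene reads) was left out. Of the genes that match the family prefixes 1 was not counted as a member, and a few counted genes are not reported here by name or drawn.

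Samples were grouped by the labels. A gene was kept if any sample had 1 read of it or more. TMM factors over 40 samples gave the printed CPM, and factors within each tissue entered M1. Tissues were compared in edgeR 4.0.16 (R 4.3.3) with quasi-likelihood tests on tissue and sex, and sexes with likelihood ratio tests, p-values being adjusted by Benjamini-Hochberg across 13148 genes and the prior count being 0.125. Scripts were tested on simulated data. Alternatives were the quasi-likelihood test, DESeq2 1.42.0, voom in limma 3.58.1, RLE factors, filterByExpr, an animal block and leaving out animals or libraries. The animal block was used through voom in the sex fit over tissues, and in edgeR in the tissue and interaction fits. Libraries of 1 animal deviated together only in part. A correlation over 0.1 was found for 37 of 60 same-animal pairs, beside 52 of 240 pairs of different animals of 1 sex. The medians were 0.22 and -0.058. Deviations were taken from the mean of each sex and tissue, which ties the second median to the first, so it is no independent baseline. The pairing itself comes from the animal numbers in the sample titles. Figures were drawn with matplotlib 3.10.9.

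Members and lists were chosen with earlier results of these data known. Named with full statistics were the enriched members (at most 10 per tissue), those called by sex, the 3 smallest p values per tissue and the role lists for uptake, export, KATP and cholesterol efflux. The other members were named after their values were seen. Gene order came from RefSeq on ARS-UCD2.0, whose coordinates were not used. Levels were not compared between genes, as transcript lengths were not used here. Floors cover counting error only.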

Additional observations from a re-analysis of the deposited data

Results flagged for a closer look

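In 51 groups of 5 libraries, a member's highest or lowest level was set against the rest of its group by Dixon's ratio, and 7 stood apart. The rate of about 1 in 20 by chance holds for independent groups of normally distributed values. These groups were chosen for enrichment or small p values by sex and share libraries, so the count was not tested against chance. In the pituitary of bulls, bull 5 stood apart for 3 genes, with ABCG4 at 16.05 CPM (nearest 7.84), SLC17A7 low at 3.98 CPM (nearest 7.41) and SLC22A8 at 0.848 CPM (nearest 0.153). In the pituitary of cows, cow 4 had the low ABCG4 value of 6.86 CPM (nearest 9.43). In muscle, SLC22A16 was far from the rest in both sexes, at 2.67 CPM in cow 3 (nearest 1.03) and at 17.5 CPM in bull 3 (nearest 6.08). In the fat of cows, ABCA4 was at 5.75 CPM in cow 5 (nearest 1.96).

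The effect of sex on SLCO1C1 differed between tissues by the interaction term (adjusted p 0.0213, edgeR likelihood ratio test), with bulls higher in the pituitary. The term passed in 6 of the 10 fits that each left out 1 animal. It did not pass by the quasi-likelihood test (adjusted p 0.182) or with the animal as a block, and levels in the other tissues were near the floor.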

How the results depend on the processing

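With a log2 limit of 1 the enriched members were 2 in muscle (ABCC1, SLC22A4), beside 8.13% of all genes, and 11 in the pituitary, beside 12%. By the quasi-likelihood test 0 members were called by sex in muscle, 0 in the pituitary, 0 over tissues and 0 for the interaction. At an unadjusted p below 0.05 there were 7, 3, 6 and 6. Of all 13148 genes, this test called 7, 12, 77 and 0 in the same order, with 1307, 1134, 2079 and 922 at that p. By voom with the animal as a replicate block (pairing by the number in the sample title), 0 were called over tissues. With the block in edgeR, 0 were called for the interaction. Across the alternatives other than leaving out single animals, 8 to 279 of all genes were called over tissues and 0 to 80 for the interaction. In the tissue fits the edgeR block ended no call. It added ABCA1 in liver (15 enriched) and ABCA7, ABCB9 and SLC22A15 in the pituitary (9 enriched). Without the liver of bull 3 and the fat of bull 5, 0 were called over tissues.

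Leaving out each animal gave 13 to 15 enriched members in liver, 0 to 0 in fat and muscle and 5 to 8 in the pituitary. It gave 0 to 3 members called by sex in liver, 0 to 0 in fat, 1 to 3 in muscle, 0 to 1 in the pituitary, 0 to 3 over tissues and 0 to 2 for the interaction. The calls by sex over all genes were 10 to 187 in liver, 5 to 22 in fat, 25 to 553 in muscle and 54 to 231 in the pituitary. They were 57 to 714 over tissues and 9 to 197 for the interaction. Directions were compared for the enriched members and, in each fit by sex, for the 3 members of smallest p. None of these was reversed under any alternative in which it was tested. The other members were not compared in this way, and the interaction has no single direction. The cause of the changes in the counts was not tested. Depth limits SLC22A6, SLC22A8 and SLC22A10, which a filter on low counts removed.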
